A study of Mus musculus with 13 samples.

Results

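The 10 genes described here handle zinc in the cells of the mouse mammary gland, and they were taken from the deposited expression table by symbol. They are the zinc exporters Slc30a1, Slc30a2 and Slc30a4, the zinc importers Slc39a4, Slc39a6, Slc39a8 and Slc39a14, the metallothioneins Mt1 and Mt2, and the zinc-sensing transcription factor Mtf1. All 10 were among the 15213 genes of the table. RNA was sequenced from 10 mammary tumors of 6 females of the genotype MtTA Teto-TSG101wt and from the glands of 3 wild-type females of the FVB strain. Tumors 2 and 3 came from 1 mouse, tumors 5 and 6 from another, tumors 8, 9 and 10 from a further mouse, and tumors 1, 4 and 7 from 1 mouse each. In these animals on the FVB background, the tetracycline-controlled transactivator (tTA) under the MMTV promoter, which is active mainly in mammary epithelium, drives a TetO-Tsg101-luciferase transgene of a single founder line unless doxycycline is given. The ages and the reproductive stages of the females are not given in the sources used here. The comparison asks how transcripts for zinc handling differ between tumors that arose under TSG101 overexpression and normal glands.

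Zinc is an essential cofactor that is toxic when free in the cytosol, and cells balance it with opposing transporter families. SLC30 proteins (ZnT) move zinc out of the cytosol, across the plasma membrane or into vesicles, and SLC39 proteins (ZIP) move it in. Metallothioneins are small cysteine-rich proteins that bind the metal, and MTF-1, the product of Mtf1, binds metal response elements in DNA when zinc is plentiful and activates Mt1, Mt2 and Slc30a1. In the lactating gland, ZnT2 (Slc30a2) loads zinc into secretory vesicles, and a mutation of Slc30a4 is the cause of the mouse trait lethal milk.

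The start regions of the 2 metallothionein genes and of Slc30a1 are shown because these genes are the textbook targets of MTF-1, and because Mt1 and Mt2 varied together in the tumors. Each sequence is RefSeq sequence of GRCm38.p6 with 250 bases before and 50 bases after a transcript start, 5′ to 3′ on the strand of the gene, which is the plus strand for all 3. Capitals mark the core of a metal response element, TGCACNC or TGCGCNC, on either strand, and the 2 forms cannot share a site. The window of Mt1 is chr8:94178839-94179138, that of Mt2 chr8:94172368-94172667 and that of Slc30a1 chr1:191906531-191906830.
Mt1: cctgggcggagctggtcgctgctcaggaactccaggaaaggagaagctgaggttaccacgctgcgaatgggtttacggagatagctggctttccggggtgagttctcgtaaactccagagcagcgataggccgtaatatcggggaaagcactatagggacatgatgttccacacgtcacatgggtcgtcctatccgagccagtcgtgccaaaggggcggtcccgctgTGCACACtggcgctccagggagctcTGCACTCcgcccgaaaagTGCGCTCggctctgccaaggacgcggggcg
Mt2: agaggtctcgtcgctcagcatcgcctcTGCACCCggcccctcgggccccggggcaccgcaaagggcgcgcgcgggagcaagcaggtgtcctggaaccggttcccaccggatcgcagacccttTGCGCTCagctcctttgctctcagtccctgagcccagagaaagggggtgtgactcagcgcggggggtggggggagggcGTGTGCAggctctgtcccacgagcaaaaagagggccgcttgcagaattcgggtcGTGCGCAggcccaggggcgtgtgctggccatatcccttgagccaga
Slc30a1: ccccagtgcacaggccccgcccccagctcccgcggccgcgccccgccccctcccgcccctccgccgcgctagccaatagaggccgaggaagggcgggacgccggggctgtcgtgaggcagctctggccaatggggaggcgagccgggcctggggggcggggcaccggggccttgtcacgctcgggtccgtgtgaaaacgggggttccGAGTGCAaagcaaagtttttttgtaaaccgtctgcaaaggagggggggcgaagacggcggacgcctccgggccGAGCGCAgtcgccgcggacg
The Mt2 window held 4 matches, the Mt1 window 3 and the Slc30a1 window 2. Among 32851 RefSeq windows of the same length, 25.7% held at least 1 match, 7.11% at least 2, 1.97% at least 3 and 0.517% at least 4. The window of Slc30a2 held 2 matches and that of Slc30a4 held 3. Slc39a8 has windows for a pair of starts, with 0 and 1 match, and the window of Mtf1 itself held 0. A match is a description of the letters only, and in so short a window it does not show binding. Windows were found for 7 of the 10 genes, and those of Slc39a4, Slc39a6 and Slc39a14 were not analysed here.

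The values are called normalized cpm from here on: reads on a gene relative to the reads of the library, after a scaling of each library by the authors. The tumors held between 6176269 and 16835397 reads on listed genes and the glands between 11672487 and 23889042. Tumors and glands were compared with limma on log2(normalized cpm + 1), and a gene was called significant when its adjusted p (the FDR) was below 0.05 and its fold change exceeded 2. Of 11795 genes tested, 10.2% were higher and 6.99% lower by this rule. Over all genes tested, the log2 fold change had a median of 0.01. When libraries were instead scaled to a list of 15 epithelial genes, that median moved to -0.54 and the share of higher genes among those called went from 59.3% to 21.5%, so that changes are to be read relative to the median. Of those 15 genes, 3 were themselves called higher in the tumors, Krt7, Cldn4 and Elf3 (log2 fold changes of 3.32, 1.59 and 1.23). The other genes of the list were not called and the median of the 15 was 0.22, so that this scaling is not neutral between the groups. Tsg101 itself was at 66.5 ± 15.5 (tumors, SD, n = 10) against 53.2 ± 7.68 (glands, SD, n = 3). Its log2 fold change of 0.30 did not pass the test (adjusted p = 0.296, limma) and turned to -0.27 under the epithelial scaling. Transgene and endogenous reads cannot be told apart. Tumors 1 and 9 and gland 3 stood at one end of the second principal component (25.8% of the variance), and the ribosomal precursor Rn45s took 27.4% of the reads of tumor 9 and 4.35% of those of gland 3, the highest share of each group.

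The tissue makeup differed between the groups, and in bulk RNA fewer cells of a type and less RNA per cell cannot be told apart. Of 12 milk and secretory genes, 11 were significantly lower in the tumors, and their summed level ran from 1605 to 78465 normalized cpm in the tumors and from 168112 to 307359 in the glands. The caseins and the whey acidic protein gene Wap are among them. All 12 adipocyte markers were lower in the tumors when tested without the filter on low values, with sums of 101 to 659 in the tumors and 5076 to 12755 in the glands. Of 12 squamous epithelial genes, 11 were higher in a test without the filter, with sums of 553 to 4601 in the tumors and 27.7 to 46.8 in the glands. In the glands, the squamous markers Ivl, Sprr1b and Dsg3 were at 0 in all 3 libraries. Of 10 basal markers, tested without the filter, 5 were higher (Krt5, Krt14, Krt15, Krt17 and Trp63) and 5 lower (Acta2, Myh11, Cnn1, Mylk and Oxtr, which serve contraction). Epithelial marker sums were 2651 to 3946 in the tumors and 2656, 3787 and 1783 in glands 1, 2 and 3. Lymphocyte marker sums were 879, 57.2 and 856 in glands 1, 2 and 3 and between 51.9 and 255 in the tumors. Of 8 endothelial markers, 7 were lower, and all 8 had every tumor below every gland, with sums of 70.8 to 148 in the tumors and 353 to 681 in the glands. Of 9 macrophage markers that passed the filter, 1 was called higher and 5 were higher by the FDR alone, with sums of 1055 to 4783 in the tumors and 641 to 2000 in the glands. The part of these differences in the results for the zinc genes was not tested.

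Of the 10 zinc genes, which all passed the filter, 1 was significantly lower in the tumors, Slc39a4, and 0 were significantly higher, against 6.99% and 10.2% of all genes (17.2% in either direction). By the FDR alone, without the fold limit, 2 were lower (Slc39a4 and Slc30a4) and 1 was higher (Slc39a6), where 13% and 14.8% of all genes were (27.8% in either direction). The count of lower genes depended on the setting: it was 4 with epithelial scaling, where 20.4% of all genes were lower, and 0 without gland 2 or with the replicate number as a block. Without gland 1 it was again 1, but the gene called was Slc30a4 in place of Slc39a4. In 1 gene, Slc30a4, all 10 tumors lay below all 3 glands, which held for 8.53% of all genes. The 10 log2 fold changes had a median of -0.42.

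**Figure D1:**
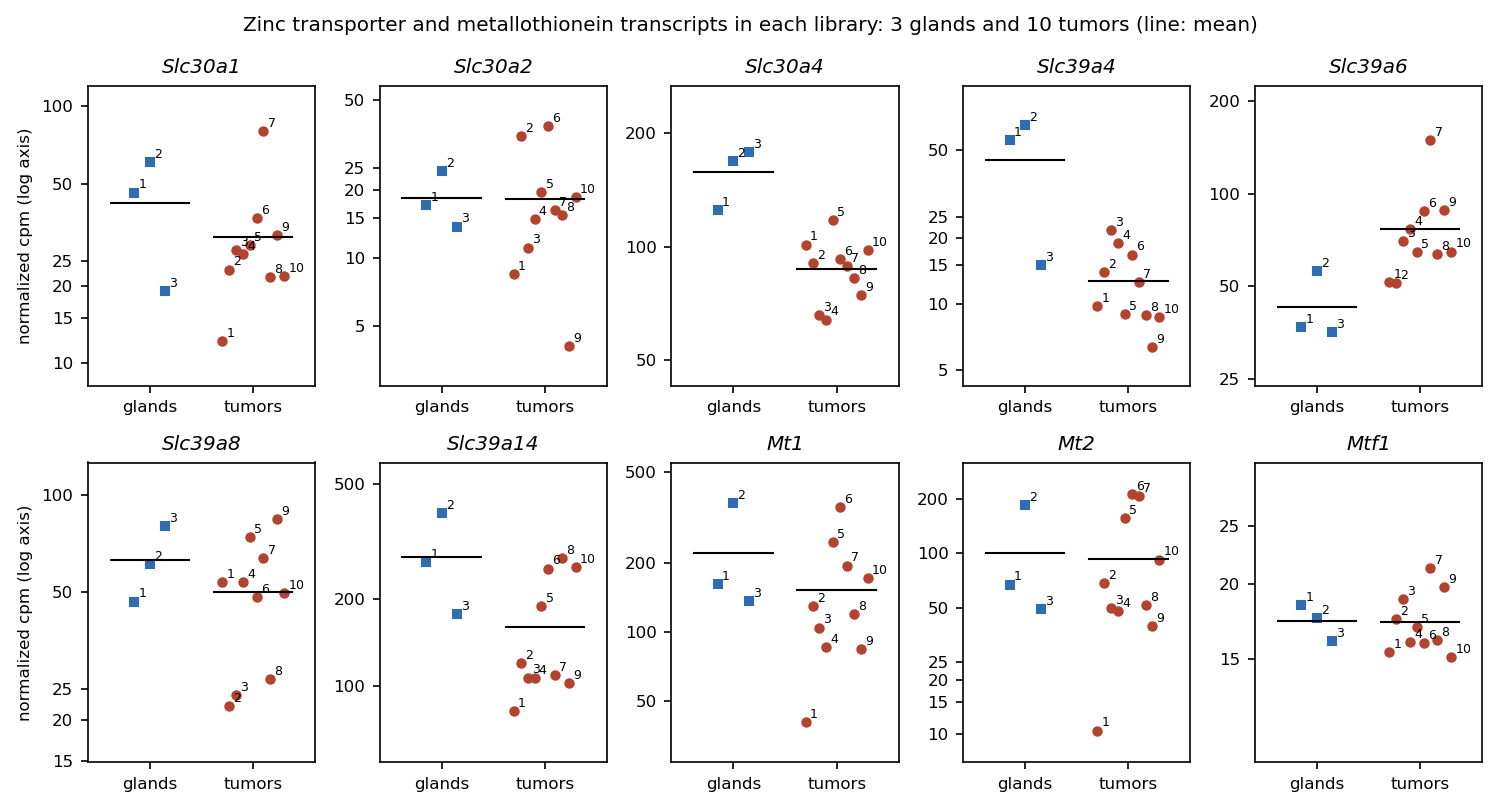
Level of each of the 10 zinc genes in each library, in normalized cpm on a log axis whose range differs between panels; blue squares are the 3 glands, red circles the 10 tumors, small numbers the replicate and black lines the group means. In Slc30a4 all tumors sit below the lowest gland at 125, in Slc39a4 gland 3 at 15.1 lies among the tumors, and in Mt1 and Mt2 the tumors spread from 40.3 to 350 and from 10.5 to 211.

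Slc30a4, whose product carries zinc into vesicles of the secretory pathway, was the one gene of the 10 whose groups did not overlap. Its level was between 64.0 and 118 normalized cpm in the tumors, with a median of 89.5, and was 125, 169 and 178 in glands 1, 2 and 3. No tumor reached the lowest gland, and the spread was small in both groups. Tumors averaged 87.5 ± 16.6 (SD, n = 10) and glands 157 ± 28.4 (SD, n = 3), which gave a log2 fold change of -0.85 (SE 0.19, 95% interval -1.25 to -0.44, adjusted p = 0.00389, limma). This is 1.80-fold lower and under the limit of 2-fold, so that the gene was not called. The FDR stayed below 0.05 in 29 of 30 alternative settings, and the fold limit was passed in 3 of them. With the fold limit passed, the log2 fold change was -1.003 without gland 1, -1.41 with epithelial scaling and -1.03 with a gene length score as a covariate. That score, 1 value per library, is described with Slc39a4 below. Slc30a4 (chromosome 2, 122681233 to 122702663) shares 130 exon bases with 4930417H01Rik on the opposite strand, and since no source used here states how strand was treated in counting, reads of the pair cannot be told apart.

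Slc30a2, the exporter that fills milk vesicles, did not differ detectably, although the milk genes did. It ran from 4.10 normalized cpm in tumor 9 to 38.3 in tumor 6, with a median of 15.9, and was 17.2, 24.2 and 13.8 in glands 1, 2 and 3. The gland values lay inside the range of the tumors, with 2 tumors above and 3 below all glands. Tumors averaged 18.1 ± 10.8 (SD, n = 10) and glands 18.4 ± 5.30 (SD, n = 3), and the log2 fold change was -0.20 (95% interval -1.20 to 0.81, adjusted p = 0.795, limma). An increase of 1.76-fold or a decrease to 0.434 of the gland level would lie at the ends of that interval. Tumors of 1 mouse were not alike in this gene. The values were 34.6 and 11.1 in tumors 2 and 3, and 19.6 and 38.3 in tumors 5 and 6. In the mouse of tumors 8, 9 and 10 they were 15.5, 4.10 and 18.5, a 4.52-fold range within a single animal. Tumor 9 rests on 18 reads of the gene, the lowest number among the libraries.

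To set the secretory exporters against the milk genes in the same library, the mean log2 level of the 12 milk and secretory genes was subtracted from the log2 level of each exporter, a comparison chosen after the data were seen. For Slc30a2 this difference was -3.65 ± 1.09 (SD, n = 10) over the tumors, against -7.31 ± 0.71 (SD, n = 3) over the glands. The gap between the groups was 3.66 on the log2 scale, with 10 of 10 tumors above all glands. For Slc30a4 the values were -1.25 ± 1.56 and -4.26 ± 0.25, a gap of 3.01, again with 10 of 10 tumors above. With 1 mean per mouse the gaps were 3.79 and 3.16. These gaps restate the lower milk genes, whose log2 fold changes had a median of -3.33, beside those of the exporters, and are given as a description without a test.

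Across the 6 tumor-bearing mice, Slc30a2 and the milk genes had a Pearson r of 0.632 (exact permutation p = 0.171, adjusted p = 0.228 over 4 relations) and a Spearman rho of 0.486 (exact permutation p = 0.356, adjusted p = 0.474). Without the 2 mice farthest from the median milk level, r was 0.6996. Over the 10 tumors taken singly r was 0.823, where tumors of 1 mouse are not independent. For Slc30a4 the relation over mice had an r of 0.318 (exact permutation p = 0.540, adjusted p = 0.540) and a rho of 0.314 (exact permutation p = 0.564, adjusted p = 0.564), and it did not hold without the 2 farthest mice, where r was -0.11. Neither relation passed the test at this number of mice. The genes whose log2 levels were most like Slc30a2 over the 10 tumors, of all genes tested, were Atp2c2 (r = 0.973), a calcium and manganese pump of the secretory pathway, followed by Srd5a3 (0.955), Tbc1d13 (0.953), Vopp1 (0.947) and Lrg1 (0.945). This list for Slc30a2 was added after the data were seen.

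**Figure D2:**
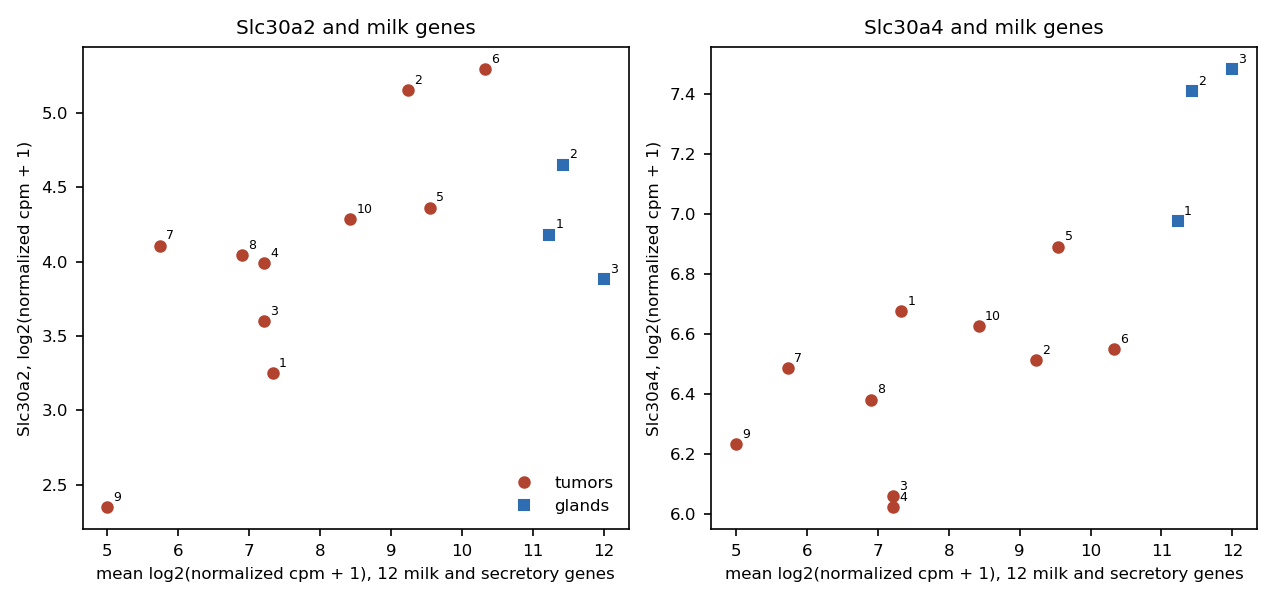
Level of Slc30a2 (left) and Slc30a4 (right) in each library against the mean level of 12 milk and secretory genes, both as log2(normalized cpm + 1); red circles are tumors, blue squares glands, and numbers give the replicate. The glands sit at the right, beyond every tumor on the milk axis; their Slc30a2 values lie among those of the tumors and their Slc30a4 values above them.

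Slc30a1, the exporter of the plasma membrane and a target of MTF-1, ran from 12.2 normalized cpm in tumor 1 to 80.0 in tumor 7, with a median of 27.1, and was 46.2, 60.6 and 19.1 in glands 1, 2 and 3. The groups overlapped, and tumor 7 lay above every gland and every other tumor. Tumors averaged 31.0 ± 18.4 (SD, n = 10) and glands 42.0 ± 21.0 (SD, n = 3), and the log2 fold change was -0.43 (95% interval -1.32 to 0.46, adjusted p = 0.484, limma). With each replicate left out in turn it stayed negative and ran from -0.91 to -0.10. With epithelial scaling it was -0.98 (adjusted p = 0.0475, limma), under the fold limit. The gene shares 468 exon bases with the antisense gene 1700034H15Rik.

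Slc39a4, which encodes ZIP4, the importer that takes up dietary zinc in the intestine, fell in the tumors. The tumors were between 6.37 and 21.8 normalized cpm, with a median of 11.2, and glands 1, 2 and 3 were at 55.6, 65.4 and 15.1. Glands 1 and 2 stood above every tumor, whereas gland 3 lay inside the range of the tumors, and 7 of 10 tumors were below all glands. Tumors averaged 12.7 ± 5.07 (SD, n = 10) and glands 45.4 ± 26.7 (SD, n = 3). With a log2 fold change of -1.61 (SE 0.40, 95% interval -2.47 to -0.75, adjusted p = 0.00786, limma), the level was 3.05-fold lower. The call rests on the glands: the log2 fold change was -1.34 without gland 1 (adjusted p = 0.0661), -1.23 without gland 2 (adjusted p = 0.0708) and -2.25 without gland 3, again with limma. With 1 mean per mouse the call held, at -1.51 (adjusted p = 0.0286, limma), and over all 30 alternative settings the adjusted p ran from 2.43e-05 to 0.404. Gland 3 also had the lowest epithelial marker sum (1783) and the highest milk and adipocyte sums of the glands, and the part of these in its Slc39a4 value was not tested. A gene length score of each library, computed from these same data, is given beside the Slc39a4 values. The score is the correlation across genes between log2 exon length and a gene's deviation from its mean over all libraries. It was -0.17 in gland 3 but 0.31 and 0.28 in glands 1 and 2, and it was negative in tumors 1, 2, 5, 9 and 10. It was positive in the other tumors, among them tumors 3, 4 and 6 with the highest Slc39a4 values, but also tumor 8, which at 8.94 was among the lowest. Tumor 2, with a negative score, was at 13.9, above tumor 7 at 12.6. The part of this score in the Slc39a4 values was not tested. With the score of each library as a covariate the log2 fold change was -1.11 (adjusted p = 0.00825, limma). The gene lies on the minus strand at chromosome 15, 76612383 to 76618506. Over the 10 tumors, the genes most like Slc39a4 were Optn (r = 0.976), Cd276 (0.971), Gpatch11 (0.964), Prkaca (0.964) and Copg2 (0.955).

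Slc39a6, the importer also known as LIV-1, was the only gene of the 10 with a positive log2 fold change. It ran from 51.2 to 149 normalized cpm in the tumors, with a median of 67.5, and was 36.9, 56.0 and 35.6 in glands 1, 2 and 3. The highest gland was exceeded by 8 of 10 tumors, and the other 2, tumors 1 and 2, lay below gland 2 only. Tumors averaged 76.7 ± 28.4 (SD, n = 10) and glands 42.8 ± 11.4 (SD, n = 3), which gave a log2 fold change of 0.79 (SE 0.27, 95% interval 0.21 to 1.36, adjusted p = 0.0403, limma). At 1.73-fold it was under the fold limit, and the FDR stayed below 0.05 in 18 of 30 alternative settings. With epithelial scaling the log2 fold change was 0.23 (adjusted p = 0.557, limma). With 1 mean per mouse it was 0.85 (adjusted p = 0.0684), and without the mouse of tumors 8, 9 and 10 it was 0.80 (adjusted p = 0.0841). Leaving out gland 1 or gland 3 gave 0.70 (adjusted p = 0.171) and 0.67 (adjusted p = 0.112).

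Slc39a14, an importer of zinc, iron and manganese that is known from the acute-phase response of the liver, was at 81.9 to 278 normalized cpm in the tumors, with a median of 115, and at 268, 397 and 178 in the glands. Of the 10 tumors, 6 were below all glands, while tumors 5, 6, 8 and 10 reached gland levels. The log2 fold change was -0.86 (95% interval -1.69 to -0.03, adjusted p = 0.115, limma), and with epithelial scaling it was -1.43 (adjusted p = 0.00604). Slc39a8, an importer of zinc and manganese, was at 22.2 to 84.2 in the tumors, with a median of 51.6, and at 46.8, 61.3 and 80.1 in the glands. Its groups overlapped widely, with a log2 fold change of -0.41 (95% interval -1.21 to 0.38, adjusted p = 0.454, limma). In the mouse of tumors 8, 9 and 10, both importers differed between tumors, Slc39a14 2.71-fold with tumor 9 lowest and Slc39a8 3.14-fold with tumor 9 highest.

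The metallothioneins Mt1 and Mt2 did not differ detectably between the groups as deposited and varied widely among the tumors. Mt1 ran from 40.3 normalized cpm in tumor 1 to 350 in tumor 6, with a median of 125, and was 162, 366 and 136 in glands 1, 2 and 3. Mt2 ran from 10.5 in tumor 1 to 211 in tumor 6, with a median of 60.0, and was 67.1, 185 and 49.1 in the glands. In both genes gland 2 stood well above the other glands. No tumor exceeded it in Mt1, and tumors 6 and 7 did in Mt2. For Mt1, tumors averaged 153 ± 91.9 (SD, n = 10) and glands 221 ± 126 (SD, n = 3), with a log2 fold change of -0.62 (95% interval -1.71 to 0.47, adjusted p = 0.405, limma). With epithelial scaling, which lowers the median of all genes to -0.54, Mt1 was at -1.19 (adjusted p = 0.0486, limma). For Mt2 the averages were 93.4 ± 72.2 (SD, n = 10) and 100 ± 73.6 (SD, n = 3), with a log2 fold change of -0.30 (95% interval -1.83 to 1.23, adjusted p = 0.792, limma) that turned to 0.25 without gland 2. The lowest and highest tumors differed 8.70-fold in Mt1 and 20.1-fold in Mt2. Mt2 shares 432 exon bases with the antisense gene Gm45774.

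Mt1 and Mt2, neighbours on chromosome 8 (94178883 to 94180327 and 94172618 to 94173567), moved in parallel from tumor to tumor. Over the 6 mice r was 0.967 (exact permutation p = 0.00556, adjusted p = 0.0222 over 4 relations) and rho was 0.886 (exact permutation p = 0.0333, adjusted p = 0.133). Without the 2 mice farthest from the median r was 0.944. The ratio of Mt2 to Mt1 in normalized cpm was between 0.261 in tumor 1 and 1.07 in tumor 7, and 0.362 to 0.504 in the glands. Mt2 was also the gene most like Mt1 over the 10 tumors (r = 0.965) of all genes tested, followed by Eva1b (0.9502), Dnajb13 (0.912), Hrct1 (0.908) and Apln (0.906). Both metallothionein genes have similar sequences, so that reads matching both could not be reassigned. Mt1 and Slc30a1 had an r of 0.749 over the mice (exact permutation p = 0.0958, adjusted p = 0.192) and a rho of 0.714 (exact permutation p = 0.136, adjusted p = 0.272), which did not pass the test. Without the 2 farthest mice that r was 0.867, and over the 10 tumors taken singly it was 0.601.

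Mtf1, the sensor, had the narrowest range of the 10 genes among the tumors, 1.41-fold. It was at 15.1 to 21.3 normalized cpm in the tumors, with a median of 16.6, and at 18.5, 17.6 and 16.1 in the glands. The log2 fold change was -0.01 (95% interval -0.31 to 0.28, adjusted p = 0.966, limma), and the ends of the interval correspond to 0.809 and 1.22 of the gland level. Mtf1 shares 721 exon bases with 1110065P20Rik on the opposite strand.

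Levels of different genes were compared per kilobase of annotated exon, from the means in normalized cpm per kb. In the glands the order was Mt1 (178), Mt2 (170), Slc30a4 (28.7), Slc39a14 (26.6), Slc39a4 (14.6), Slc39a6 (10.5), Slc39a8 (8.18), Slc30a1 (8.003), Slc30a2 (5.15) and Mtf1 (1.95). In the tumors it was Mt2 (159), Mt1 (123), Slc39a6 (18.8), Slc30a4 (16.0), Slc39a14 (15.3), Slc39a8 (6.53), Slc30a1 (5.92), Slc30a2 (5.09), Slc39a4 (4.08) and Mtf1 (1.94). The order of Mt1 and Mt2 depends on their joined exon lengths of 1.246 and 0.588 kb. Before that division, Mt1 averaged 153 normalized cpm in the tumors and Mt2 93.4. The metallothioneins led in both groups, and Slc39a6 stood below Slc30a4, Slc39a14 and Slc39a4 in the glands and at the head of the transporters in the tumors. Slc39a4 was the lowest transporter in the tumors. Among neighbours in the tumors, the step from Mt1 down to Slc39a6 was seen in 10 of 10 libraries, that from Slc39a14 to Slc39a8 in 9 of 10 and that from Slc39a4 to Mtf1 in 9 of 10. The other neighbours changed places in 3 or more of the 10 libraries, and their order lay within the spread. In the glands, Mt2 over Slc30a4, Slc39a14 over Slc39a4 and Slc30a2 over Mtf1 held in 3 of 3 libraries, and the others changed places in at least 1.

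Of 20 further zinc genes (the remaining SLC30 and SLC39 families, Tmem163, Mt3 and Mt4), 14 were listed and 12 passed the filter. Slc30a3, Slc30a8, Slc30a10, Tmem163, Slc39a12 and Mt3 were not analysed here. Mt4 was significantly higher in the tumors, 0 of the 12 were significantly lower, against 10.2% and 6.99% of all genes, and the median over the 12 was 0.10 on the log2 scale. Mt4 passed the filter only through its tumor values, a direction that the filter favours, so that the count is a description. By the FDR alone 3 were higher and 3 lower, against 14.8% and 13% of all genes. Mt4, the metallothionein of stratified squamous epithelium, had 0 reads in all 3 glands. In the tumors it ran from 0.180 normalized cpm in tumor 1, which had 3 reads, to 131 in tumor 7, with a median of 10.2. The tumors thus differed 727-fold among themselves, an imprecise ratio because the value of tumor 1 is at the floor of 3 reads. Tumors 4 and 8 were at 0.939 and 2.59. The mean of 27.6 ± 39.7 (SD, n = 10) was at least 128-fold higher than the floor of 3 reads per library in the glands, a mean of 0.216 normalized cpm. Without tumor 7 the mean was 16.2 and the bound 74.7-fold. The fit gave a log2 fold change of 3.60 (SE 1.13, adjusted p = 0.0274, limma), a value that depends on the added constant.

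Mt4 lost its call in 8 of 30 alternative settings. Leaving out gland 1, 2 or 3 raised its adjusted p to 0.0903, 0.0827 and 0.0551 with limma, while the log2 fold change stayed at 3.60, and 1 mean per mouse gave 0.0673. Tumor 7, the highest in Mt4, also had the highest squamous marker sum (4601), whereas tumors 5, 9 and 2 followed in Mt4 at 47.3, 34.1 and 31.7 with squamous sums of 1076, 853 and 972. Tumor 3, with the next highest squamous sum (2545), was at 8.20 in Mt4. The part of the squamous genes in the Mt4 level was not tested.

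**Figure D3:**
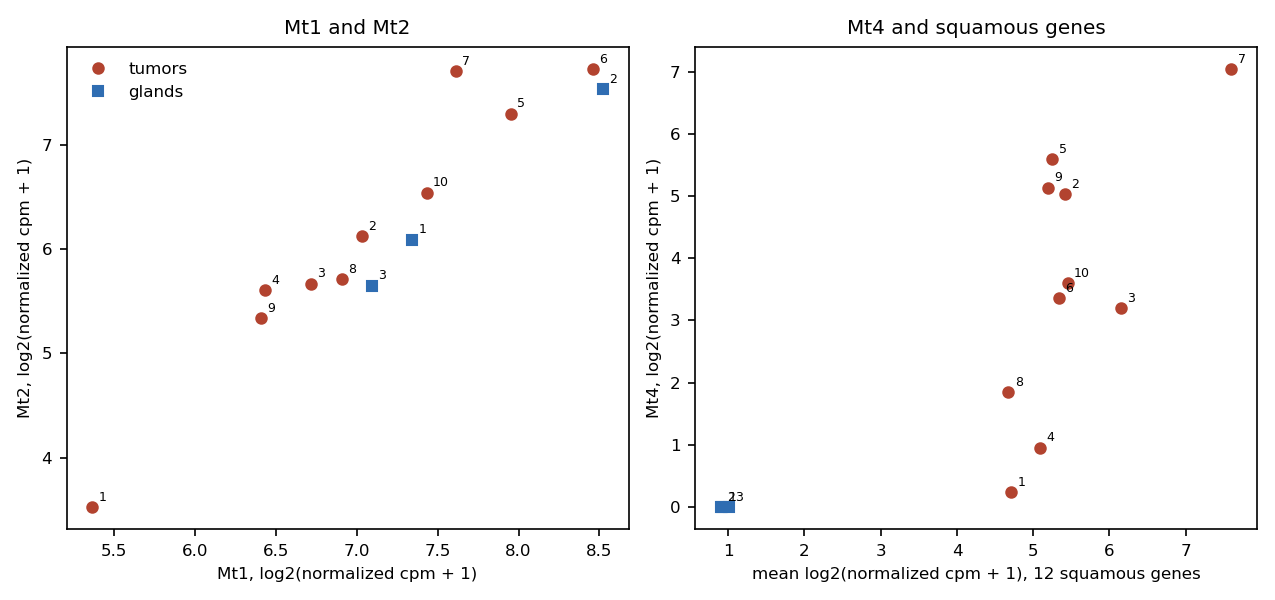
Left, Mt2 against Mt1 in each library; right, Mt4 against the mean level of 12 squamous genes; all axes are log2(normalized cpm + 1), red circles are tumors, blue squares glands, and numbers give the replicate. Mt1 and Mt2 form a single band with tumor 1 at its lower end, and tumors and glands mix along it; for Mt4 the 3 glands lie at 0 and the tumors spread from 0.180 to 131 normalized cpm.

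Slc39a2, an importer found in skin keratinocytes, did not pass the filter but rose when tested without it, where 10.5% of all genes were higher and 10.1% lower. It was at 3.12 to 23.1 normalized cpm in the tumors, with a median of 5.55, and at 0.856, 1.19 and 0.610 in glands 1, 2 and 3. All tumors were above all glands, which held for 10.7% of the genes that passed the filter. Its log2 fold change of 2.04 had an SE of 0.41 (adjusted p = 0.00144, limma), and the adjusted p stayed below 0.05 in all of the 20 settings tried for it. Slc39a2 shares 151 exon bases with Mettl17 on the same strand.

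Several transporters of the 20 differed by less than 2-fold. Slc39a10, the importer closest to Slc39a6, was at 40.7 to 99.1 normalized cpm in the tumors and 28.3 to 35.2 in the glands, with no overlap (log2 fold change 0.77, adjusted p = 0.0233, limma). Its adjusted p rose to 0.0696, 0.0528 and 0.0713 without gland 1, 2 or 3 and to 0.0753 without the mouse of tumors 8, 9 and 10, and with epithelial scaling its log2 fold change was 0.21 (adjusted p = 0.615). Slc39a1, an importer of the plasma membrane, was at 145 to 216 against 103 to 129, also without overlap (0.49, adjusted p = 0.0284, limma), but turned to -0.08 with epithelial scaling. Without gland 1 or 2 its adjusted p was 0.168 and 0.0823. On the other side, Slc39a11 was at 23.0 to 38.7 against 51.1 to 67.8 (-0.93, adjusted p = 6.64e-04, limma) and Slc30a7, a zinc exporter into the Golgi, at 40.7 to 56.2 against 66.1 to 90.4 (-0.70, adjusted p = 0.00254, limma). In both, all tumors lay below all glands. Of the 14 listed genes, 4 had all tumors above all glands and 2 had all tumors below, against 10.7% and 8.53% of the genes that passed the filter. Mt4 is among the 4 with tumor 1 at the floor of 3 reads, and 2 of the 14 did not pass the filter. Slc39a7, which releases zinc from the endoplasmic reticulum, overlapped between groups (-0.75, adjusted p = 0.0468, limma) and passed the FDR in 15 of 30 alternative settings, against 29 of 30 for both Slc39a11 and Slc30a7. With epithelial scaling 5 of the 12 genes were called lower, where 20.4% of all genes were. Slc39a6 and Slc39a10 both had their highest tumor value in tumor 7.

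**Figure D4:**
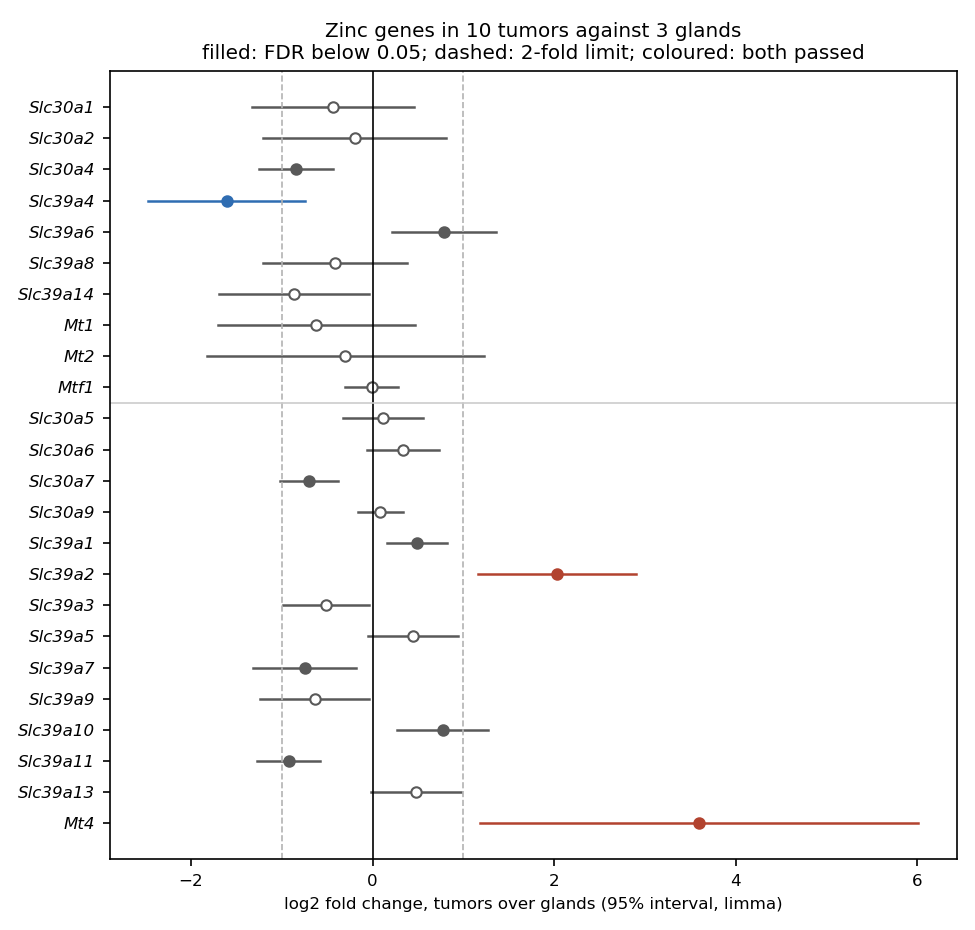
Log2 fold change, tumors over glands, of the 10 zinc genes (above the grey line) and of the 14 further listed ones (below it), with 95% intervals from limma; filled points have an FDR below 0.05, dashed lines mark 2-fold, and coloured points passed both limits. Slc39a4 at -1.61 is the only coloured point among the 10; Mt4 at 3.60 and Slc39a2 at 2.04, the latter tested without the filter, are the coloured points below the line.

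Other genes that carry metal response elements or answer to glucocorticoids, which also induce metallothioneins, were read beside Mt1 and Mt2. Of 4 listed genes with metal response elements, 2 were significantly higher and 0 lower, against 10.2% and 6.99% of all genes: Pgf, a growth factor of the VEGF family, and Slc40a1, the iron exporter ferroportin. Pgf was at 38.02 to 88.2 normalized cpm in the tumors and 2.95 to 4.59 in the glands, with 3.63 as the log2 fold change (adjusted p = 2.34e-07, limma). Its gland values were below the limit of the filter, which it passed only through the tumors, so that the count of the list is a description. Slc40a1 was at 20.2 to 79.9 against 12.5 to 34.5 (1.14, adjusted p = 0.0406, limma), with overlapping groups, and lost its call in 12 of 30 alternative settings. Leaving out gland 1 or 2 gave 0.91 (adjusted p = 0.212) and 0.92 (adjusted p = 0.199). Macrophages are known to express Slc40a1, and the part of the macrophage markers in its level was not tested. Gclc and Selenow were at -0.27 and 0.30 and were not called. Of 6 glucocorticoid-responsive genes that passed the filter, 1 was higher, where 10.2% of all genes were, the kinase gene Sgk1 (1.58, adjusted p = 0.00250, limma), and the median of the 6 was -0.03. Sgk1 lost its call in 2 of 30 alternative settings. Tsc22d3 and Per1 varied 13.1-fold and 7.55-fold among the tumors.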

How the data were processed

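Total RNA libraries from 10 tumors and 3 glands were sequenced as 75 bp paired-end reads. The authors mapped them to mm10 with Rsubread, obtained counts per gene from featureCounts and scaled these in edgeR, per the paper's methods and the labels. The strand setting is not given in the sources used here. The paper places library construction and sequencing at the UNMC core facility (NextSeq), whereas the labels name Novogene as well without saying for which libraries, so that no sequencing batch could be assigned. The deposited signal values, called normalized cpm, were whole multiples of 1 read for 100% of values in every library (tolerance 0.05 reads), and reads were recovered from them. Limma 3.58.1 (R 4.3.3) was run on log2(normalized cpm + 1), with a variance trend, all 13 libraries and condition as the only term. Genes at 5 normalized cpm or less in more than 50% of libraries were removed (3418 genes), and p-values were adjusted over all 11795 tested. Fold changes are on this log2 scale, which understates changes of low genes. A floor of 3 reads (0.141 to 0.683 normalized cpm in tumors, 0.128 to 0.366 in glands) covers counting error only. Tumors of 1 mouse entered as separate samples in the fit. Alternatives used edgeR 4.0.16 on the recovered reads (quasi-likelihood test, 1122 genes higher and 952 lower), DESeq2 1.42.0, other scalings, filters, added constants, 1 mean per mouse and libraries left out. Relations were computed over 6 mice with exact permutation tests, two-sided. Positions are from RefSeq on GRCm38.p6, matched for 15106 genes. Exon lengths, strands and shared exon bases are from the GENCODE annotation of the mouse genome, with all annotated exons of a gene joined. All 10 genes of the group are described. Of the 20 further zinc genes, those called are named with full statistics, and others past the FDR are named with short values. Genes and lists were chosen with earlier results of these data known. The 5 genes most like a member were taken by Pearson r over the 10 tumors, for Mt1 and for the called member with the largest fall.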

Additional observations from a re-analysis of the deposited data

Results flagged for a closer look

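Tumor 7 stood apart from the other tumors in 4 of 13 genes checked, where its gap to the next tumor was large against the range of the 10 tumors in normalized cpm. Slc30a1 was at 80.0 normalized cpm there, Slc39a6 at 149, Mt4 at 131 and Slc39a2 at 23.1. Chance flags about 1 in 20 groups in such a check when values are normally distributed, which skewed values such as those of Mt4 are not. On the log2 scale, a check added after the data were seen, the gap was 0.49 of the range for Slc39a6 and still past the limit. It was 0.42 for Slc30a1, 0.21 for Mt4 and 0.44 for Slc39a2, which did not pass it. The same tumor held the highest sum of squamous markers (4601 normalized cpm), and the part of these in the 4 values was not tested.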

How the results depend on the processing

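Counts of called genes moved with the setting. Genes called higher went from 1204 to 661 with epithelial scaling and to 350 with the replicate number as a block, and genes called lower from 825 to 2412 with epithelial scaling, 1538 without the filter, 1538 with a filter of 1 cpm in 3 libraries and 179 with the block. Of the 10 zinc genes, 1 was called lower, but 4 with epithelial scaling (Slc39a4, Slc30a4, Slc39a14 and Mt1), 2 with the gene length score of each library as a covariate and 0 with the block. Further zinc genes called higher numbered 1, but 2 without the filter or with 1 cpm, and 0 with an added constant of 5, 1 mean per mouse, the block, the gene length score or without the mouse of tumors 8, 9 and 10. With replicates left out singly, these counts ran from 0 to 1 for zinc genes lower and from 0 to 1 for further zinc genes higher, and 0 to 2 further zinc genes were lower. Epithelial scaling gave 5. Slc39a4 was -1.35 with the block (adjusted p = 0.404, limma), and its log2 fold change stayed negative in all 30 alternatives. Differences near 0 changed sign: Slc30a2 to 0.0117 without the mouse of tumors 8, 9 and 10, Mtf1 to 0.0289 with upper quartile scaling and to 0.0175 with the gene length score, and Tsg101 to -0.27 and Slc39a1 to -0.0795 with epithelial scaling. With replicates left out singly, the ranges were -0.37 to 0.0107 for Slc30a2, -0.69 to 0.25 for Mt2 and -0.0614 to 0.032 for Mtf1. The relation of milk genes with Slc30a4 turned to -0.11 without the 2 farthest mice. Replicate numbers do not pair tumors with glands, which came from different mice: deviations of libraries with the same number correlated at -0.58, 0.04 and -0.66, and the block leaves fewer libraries to estimate the spread. The lowest gene levels rest on few reads, and 3 glands limit the precision of each comparison. The causes of these shifts were not tested.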

Other observations

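Differences between tumors of a single mouse varied by gene. In the mouse of tumors 8, 9 and 10, Mt1 ranged 2.05-fold, Mt2 2.34-fold and Slc39a4 1.40-fold. In the mouse of tumors 2 and 3, Mt1 ranged 1.25-fold, Slc39a8 1.08-fold and Slc30a4 1.37-fold.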
